A study of Mus musculus with 4 samples.

Results

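Potassium channel genes were examined in CCR6+ group 3 innate lymphoid cells (ILC3), lymphocytes without rearranged antigen receptors, taken from mesenteric lymph nodes of C57BL/6 mice that were naive. The members were all genes whose single platform symbol begins with Kcn, followed by letters and a digit, which gave 91 of the 19938 named genes. The 4 samples, numbered 1 to 4, form 1 group with no treatment and no second genotype, and each was gated on CD127+, CD90.2+, CCR6+ and ST2- and hybridised as biotin-labelled total RNA to 1 array. The labels give neither the age of the mice nor whether samples were separate mice, pools or sorts, so the spread between arrays may be partly technical. With 1 group, no difference between conditions was tested, and each gene was set against background. Values are log2 levels per probe set, and probe sets bind with different strength, so a level is not an amount of RNA that can be ranked between genes.

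Potassium channels let potassium ions leave or enter a cell and so set its membrane potential. In lymphocytes the outflow of potassium keeps the membrane negative, which maintains the driving force for calcium entry through ORAI channels after stimulation. T cells are known for a voltage-gated channel, Kv1.3, encoded by Kcna3, and a calcium-activated one, KCa3.1, encoded by Kcnn4. Two-pore-domain channels carry leak currents at rest, inward rectifiers hold the resting potential in many excitable and epithelial cells, and auxiliary subunits alter the traffic and gating of the pores they join. Most of the family is best known from nerve, muscle and secretory epithelium.

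Few potassium channel genes stood above background. Of the 91 members, 17 (18.7%) were called, against 46.2% of all named genes, and the median level was 5.50 for the members against 6.16 for all named genes. The background was formed by 1237 chemosensory receptor genes (olfactory, vomeronasal, trace amine-associated and bitter taste), with a median of 4.25 and a 95th percentile of 5.82. A gene was called when its one-sided detection p, from its rank among these genes, was under 0.05 after Benjamini-Hochberg adjustment over all named genes, which corresponded to a mean of at least 6.37. On single arrays, 32, 30, 30 and 27 members lay above the 95th percentile of background of arrays 1 to 4. The shares of all named genes above it were 59.2%, 57.6%, 57.6% and 56.6%. In all, 26 members lay above it on all 4 arrays, against 54.4% of all named genes, and limma's test called 25, against 53.9%. Before adjustment, 28 members had a detection p under 0.05, against 57.2% of all named genes.

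A call at a level that other-organ genes also reach carries little weight in these data. Of 15 genes of other organs that lymphocytes are not known for, 6 were called too, against 46.2% of all named genes. These 6 had means from 6.48 for Acta1 to 7.33 for Ckm. The muscle creatine kinase gene Ckm reached the highest value of them, 7.42 on array 1. This value is the one meant wherever a level is given as above all other-organ genes. Above it on every array were 3 potassium channel genes, Kcnk1, Kcna3 and Kcnk6, against 24.1% of all named genes. The other 14 called members were not above it on every array. The sort gate genes Il7r, which encodes CD127, Thy1, which encodes CD90, and Ccr6 were at 12.56, 11.36 and 10.49, and all 6 ILC3 markers measured were called. Against the 46.2% of all named genes, 10 of 11 B cell markers and 8 of 10 T cell markers were called. NK and ILC1 markers, at 5 of 11, stroma and endothelium, at 4 of 9, and dendritic cells, at 3 of 8, were near or below that share, and monocytes and macrophages were below it, at 2 of 10. Of 7 neutrophil markers and 4 erythroid and platelet markers, 0 were called, while 1 and 2 had an unadjusted detection p under 0.05 and limma's test called 0 and 2.

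**Figure D1:**
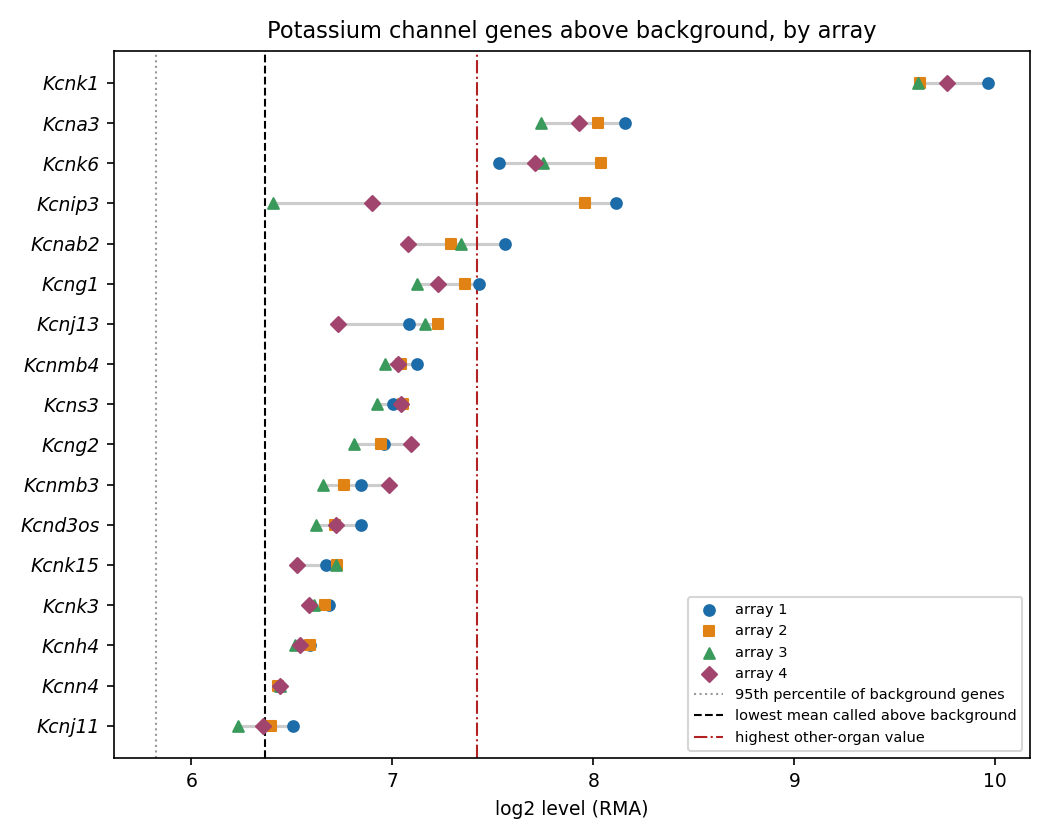
Log2 level (x axis) of the 17 potassium channel genes above background (rows) on each of the 4 arrays (symbols), with grey bars from the lowest to the highest array. The vertical lines mark the 95th percentile of background genes (5.82), the lowest mean called (6.37) and the highest value of any other-organ gene (7.42); Kcnk1, Kcna3 and Kcnk6 lie right of the last line on every array, and Kcnip3 lies on both sides of it.

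Two-pore-domain channels were called in 4 of 14 cases, or 7 with limma's test, against 46.2% and 53.9% of all named genes. Kcnk1 and Kcnk6 among them lay above all other-organ genes on every array. Kcnk1, which encodes the weak inward rectifier TWIK1 of the leak channel class, was at 9.96, 9.62, 9.62 and 9.76 on arrays 1 to 4. Its mean was 9.74 ± 0.16 (SD, n = 4, which holds for each ± below), and 0 of the 1237 background genes reached it. The adjusted detection p was 0.0108, the smallest value this test gave, which Kcnk1 shared with other genes. All arrays were close to each other, with the highest 1.27-fold above the lowest.

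Kcnk6 encodes TWIK2, a leak channel known in macrophages for the potassium efflux that precedes inflammasome activation. It was at 7.53, 8.04, 7.75 and 7.71, with a mean of 7.76 ± 0.21 and an adjusted detection p of 0.0161. Every array lay above all other-organ genes, with array 2 the highest. Monocyte and macrophage markers had list means of 6.11, 5.99, 6.08 and 5.74 on arrays 1 to 4, with array 1 the highest. NK and ILC1 markers had list means of 6.27, 6.56, 6.36 and 6.15, with array 2 the highest. In that list Gzma, which was not called, was at 5.19, 7.89, 5.41 and 5.94, and the called genes differed in their highest array. Of the 10 monocyte and macrophage markers 2 were called, and Cd68, at 6.45, 7.51, 7.09 and 6.72, ordered the arrays as Kcnk6 did, whereas Lyz2, highest at 9.11 on array 1, did not. The other 8 were not called and lay between 4.27 for Mrc1 and 6.32 for Adgre1, which limma's test called, with C1qb at 6.27, Csf1r at 5.29 and C1qa at 5.16. The part of such cells in the level of Kcnk6 was not tested.

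The other called members of the class lay within the range of the other-organ genes. Kcnk15, at 6.66 ± 0.09, encodes a member of the TASK group for which currents are hard to record, and Kcnk3, at 6.64 ± 0.04, encodes the acid-sensitive channel TASK1. Of the 10 that were not called, Kcnk16 was nearest to the threshold, at 6.33, 6.43, 6.18 and 6.33, with an adjusted detection p of 0.0523. Kcnk12 was at 6.11 ± 0.12 and Kcnk4, which encodes the mechanosensitive channel TRAAK, at 6.11 ± 0.10. Kcnk5, which encodes TASK2 and is known from T cells, was between 4.96 and 5.06, below the background's 95th percentile on all arrays. Kcnk13 of microglia was at 5.83 ± 0.0012, Kcnk9, which encodes TASK3, at 5.62 ± 0.10, Kcnk18 at 5.04 ± 0.12, and Kcnk10 was the lowest of the class at 4.94 on all 4 arrays.

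**Figure D2:**
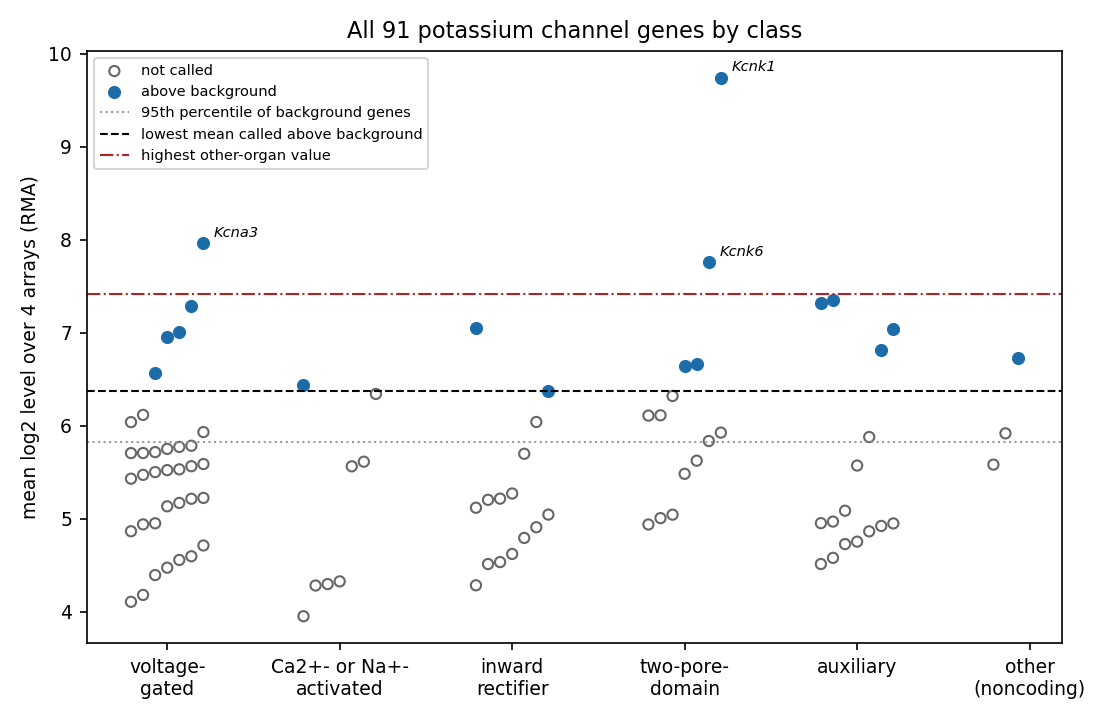
Mean log2 level over the 4 arrays (y axis) of all 91 potassium channel genes in 6 classes fixed by symbol (x axis; the horizontal offset within a class only separates points). Filled points are above background and open points are not. Filled points make up 4 of 14 two-pore-domain genes and 5 of 35 voltage-gated genes, against 46.2% of all named genes. Most points lie below the dashed line at 6.37.

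Of the 35 genes of the voltage-gated class, which holds pore-forming genes and 10 silent subunits, 5 were called, or 8 with limma's test. The shares of all named genes were 46.2% and 53.9%. The pore-forming genes among the 5 were Kcna3 and Kcnh4. Kcna3, the gene of Kv1.3, was at 8.16, 8.02, 7.74 and 7.93, with a mean of 7.96 ± 0.17, and 3 of 1237 background genes reached it. Its adjusted detection p was 0.0143, and it lay above all other-organ genes on every array. T and B cells are also known to use Kcna3, and their markers were present on these arrays. The list means of T cell markers were 7.26, 7.23, 7.59 and 7.22, and those of B cell markers 8.66, 7.77, 8.85 and 7.68. The part of T and B cells in the level of Kcna3 was not tested.

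Kcna3 was the only one of 8 Kv1 pore genes to be called. Kcna2, whose product can join Kv1 channels of neurons, came nearest at 6.04 ± 0.07 and passed the background's 95th percentile on each array, but its other probe set was at 5.67. Kcna1 was at 5.53 ± 0.07, Kcna6 at 5.22 ± 0.11 and Kcna5, known from muscle and macrophages, at 4.47 ± 0.12. Of the 3 measured Kv3 genes, 3 Kv4 genes and 3 Kv7 genes, 0 were called by either the detection test or limma's, and 0 had an unadjusted detection p under 0.05. They included Kcnc1 of fast-spiking neurons at 5.21 ± 0.01 and Kcnq1, the Kv7 channel of heart and epithelium, at 5.78 ± 0.07. Of the Kcnh genes 1 of 7 was called, Kcnh4 at 6.56 ± 0.04. Kcnh3 at 6.11 ± 0.10 and Kcnh2, which encodes the cardiac hERG-type channel, at 5.93 ± 0.07 were not, although limma's test called both.

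The remaining voltage-gated calls were silent subunits, which form no channel alone and modify Kv2 pores when they join them. Of the 10 silent subunit genes 3 were called. Kcng1 was at 7.43, 7.36, 7.12 and 7.23, with a mean of 7.29 ± 0.14 and an adjusted detection p of 0.0221. Kcns3 was at 7.01 ± 0.06 and Kcng2 at 6.95 ± 0.11. All 3 lay within the range of the other-organ genes on at least 3 arrays. Their Kv2 pore partner Kcnb2 was at 5.13 and not called. The lowest silent subunit was Kcns2 at 4.11 ± 0.05.

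Calcium- or sodium-activated channels were called in 1 of 8 cases, or 2 with limma's test, against 46.2% and 53.9% of all named genes. Kcnn4, the gene of KCa3.1, was at 6.43, 6.43, 6.44 and 6.44, with a mean of 6.44 and an SD of 0.0033. This was just past the threshold, with an adjusted detection p of 0.0448, and 24 of 1237 background genes reached it. The call was lost without array 3, at an adjusted p of 0.0515. It was also lost with olfactory receptors alone as background, at 0.054, while limma's test called it at an adjusted p of 1.86e-05. That test uses only the 95th percentile of background, not the spread among background genes. It called 52 of the 1237 background genes, against 27 by the detection test. Kcnn1, an SK channel gene of neurons, was as close on the other side, at 6.37, 6.44, 6.25 and 6.30 and an adjusted detection p of 0.052. It was called without array 1 or array 2, at 0.0497 and 0.0475. Kcnn3 was at 5.61 ± 0.09, Kcnt1, a sodium-activated channel, at 5.56 ± 0.05, Kcnma1, the large-conductance BK channel, at 4.30 ± 0.13 and Kcnt2 at 3.95 ± 0.04, the lowest of all members.

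Inward rectifiers were called in 2 of 15 cases, against 46.2% of all named genes, and both lay within the range of the other-organ genes. Kcnj13, which encodes Kir7.1 of epithelia and retinal pigment cells, was at 7.08, 7.23, 7.16 and 6.73, with a mean of 7.05 ± 0.22 and an adjusted detection p of 0.0226. Kcnj13 lies within the gene Gigyf2, which encodes a translational repressor, on the opposite strand in RefSeq, and Gigyf2 was at 8.94 ± 0.06. Whether the labelling kept strands apart is not given in the sources used here, so the part of Gigyf2 in the level of Kcnj13 was not tested. Kcnj11, the pore of ATP-sensitive channels in pancreatic beta cells, was at 6.50, 6.40, 6.23 and 6.36. Its mean of 6.37 ± 0.11 gave an adjusted detection p of 0.049, the called member nearest to the threshold, which was lost without array 3 or array 4, at 0.0515 and 0.0522. The sulfonylurea receptors that complete these channels were not called, with Abcc9 at 5.46 ± 0.06 and Abcc8 at 5.24 ± 0.05.

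The inward rectifiers described next were not called. Kcnj2, which encodes Kir2.1 of macrophages and muscle, was at 4.38, 4.19, 4.30 and 4.27, close to the median of background. Kcnj15 was at 5.70 ± 0.05. Kcnj12 was at 6.04 on all 4 arrays, above the background's 95th percentile, and limma's test called it. Kcnj10 of glia was at 5.27 ± 0.10, Kcnj1 of kidney at 4.91 ± 0.03 and Kcnj3 of heart at 4.79 ± 0.04. Among the channels of other organs outside this class, Kcnv2 of the retina was at 5.75 ± 0.13 and Kcnu1 of sperm at 4.28 ± 0.07. Of 20 members known from lymphocytes or macrophages 5 were called, Kcna3, Kcnk6, Kcnab2, Kcnk3 and Kcnn4. Of 7 known mainly from other organs 1 was called, Kcnj11. Against these stand 18.7% of all members and 46.2% of all named genes, and no difference between these lists was tested.

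Auxiliary subunits were called in 4 of 16 cases, against 46.2% of all named genes. Kcnip3 encodes the calcium-binding protein KChIP3, also called DREAM or calsenilin, which modulates Kv4 channels and acts as a transcriptional repressor. It was at 8.11, 7.96, 6.41 and 6.90 on arrays 1 to 4, with a mean of 7.34 ± 0.83 and an adjusted detection p of 0.0218. Arrays 1 and 2 lay above all other-organ genes and arrays 3 and 4 did not. The 3 other Kcnip genes were between 4.75 and 4.95, and the Kv4 pore genes Kcnd1, Kcnd2 and Kcnd3 were between 4.94 and 5.70, none of them called.

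Kcnab2, the gene of a Kv1 beta subunit that lymphocytes are known to express, was at 7.56, 7.29, 7.34 and 7.08. Its mean was 7.32 ± 0.20, with an adjusted detection p of 0.0221, and array 1 alone lay above 7.42, the highest other-organ value. Its pore partner Kcna3 was above background, as given above, and the other beta subunit genes were not, with Kcnab1 at 5.08 ± 0.13 and Kcnab3 at 4.95.

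The BK beta subunit genes Kcnmb4 and Kcnmb3 were called, while the BK pore gene Kcnma1 was near the median of background. Kcnmb4, a neuronal subunit, was at 7.12, 7.04, 6.96 and 7.03, and Kcnmb3 was at 6.85, 6.76, 6.66 and 6.98, with adjusted detection p of 0.0226 and 0.0294. Kcnmb3 overlaps Pik3ca, the gene of a lipid kinase subunit, on the opposite strand, and Pik3ca was at 8.46 ± 0.06, so the limit given for Kcnj13 holds here too. Kcnmb1 of smooth muscle at 5.57 ± 0.17 and Kcnmb2 at 4.51 ± 0.08 were not called. Of the 5 Kcne genes, small single-pass subunits of Kcnq and Kcnh channels, 0 were called by either the detection test or limma's, and 1 had an unadjusted detection p under 0.05. They ranged from 4.58 to 5.88, with Kcne1l at 5.88 ± 0.11, Kcne1 at 4.86 ± 0.06 and Kcne3 at 4.73 ± 0.06.

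**Figure D3:**
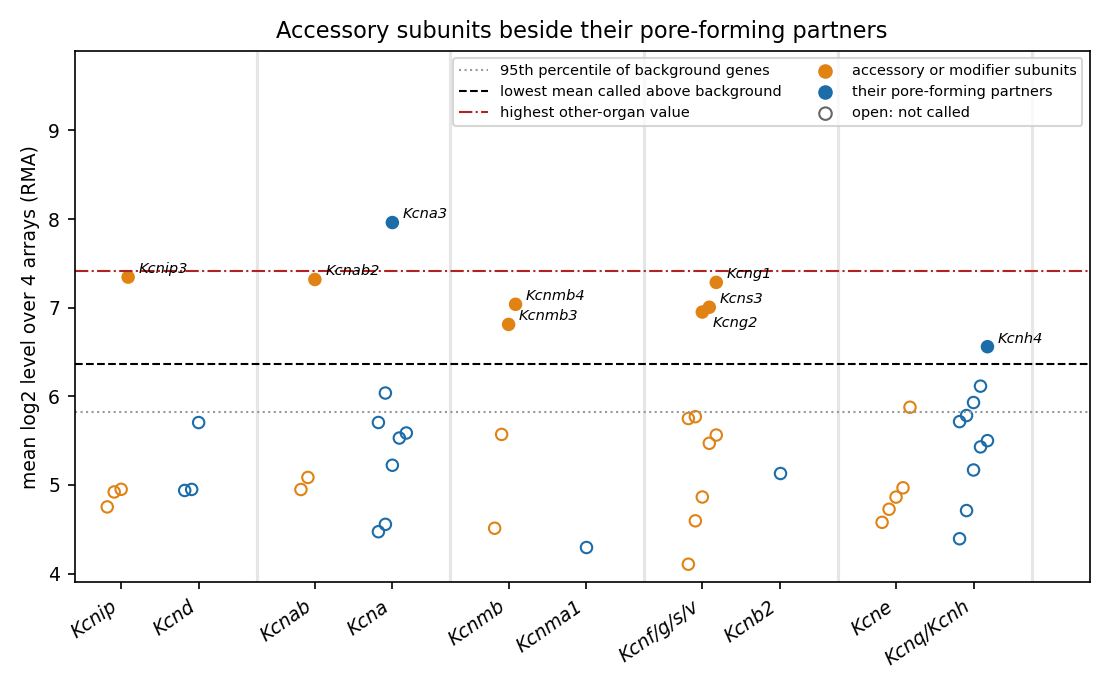
Mean log2 level over the 4 arrays (y axis) of accessory or modifier subunit genes (orange) beside the pore-forming genes they are known to join (blue); filled points are above background. Kcnab2 has a called pore partner in Kcna3, while Kcnip3, Kcnmb3, Kcnmb4, Kcng1, Kcng2 and Kcns3 stand beside pore genes of which none measured was called.

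The pattern in the symbol also took 3 noncoding genes. Kcnd3os, transcribed opposite to Kcnd3, was called at 6.84, 6.71, 6.62 and 6.72, whereas Kcnd3 itself was at 4.94. Kcnmb4os1 at 5.92 ± 0.10 and Kcnmb4os2 at 5.58 ± 0.12 were not called. Of the 17 called members, 8 overlap at least 1 other gene in RefSeq, a share close to the 41 of all 91 members. For Kcnj13 and Kcnmb3 the other gene was above background as well.

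The called members differed little between arrays, with Kcnip3 as the exception. Their median SD was 0.115, against 0.168 for all genes above background, and leaving Kcnip3 aside the ratio of highest to lowest array lay between 1.00 and 1.42. For Kcnip3 that ratio was 3.26, and 0.782% of all genes above background had a larger SD. The B cell list was high on arrays 1 and 3 and the T cell list on array 3, whereas Kcnip3 was high on arrays 1 and 2. The NK and ILC1 list was highest on array 2, where Gzma, which was not called, was at 7.89. Gzma was at 5.19, 5.41 and 5.94 on arrays 1, 3 and 4. Of the 5 called genes of that list, Klrk1, Ncr1 and Prf1 were highest on array 1, Klrb1c on array 2 and Ccl5 on array 3. The ILC3 markers had list means of 11.27, 11.29, 11.27 and 11.34 and so stayed level. The part of any cell type in the spread of Kcnip3 was not tested. Among members that were not called, Kcnq5 and Kcnj14, both picked out after their values were seen, varied most. Kcnq5 was at 5.51, 5.65, 6.34 and 5.36 and Kcnj14 at 4.88, 5.25, 5.62 and 4.72, each highest on array 3.

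**Figure D4:**
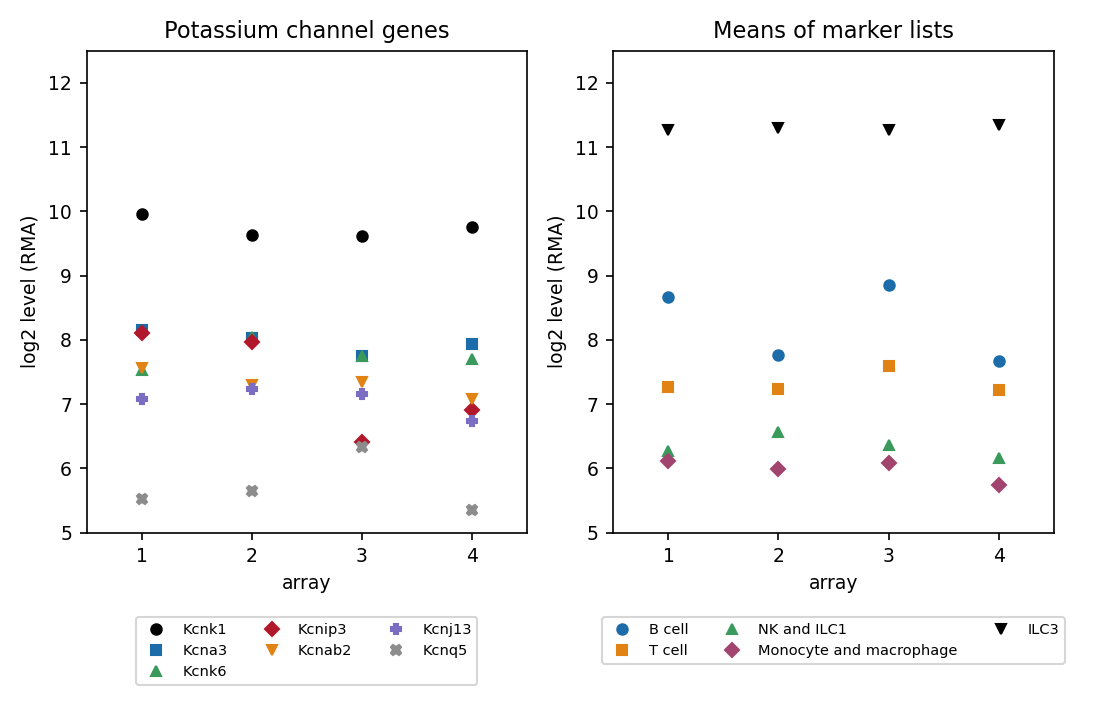
Log2 level on each array (x axis, arrays 1 to 4, which have no order) of 7 potassium channel genes (left) and the mean log2 level of 5 lists of cell type markers (right). Kcnip3 falls between 6.41 and 8.11 while Kcnk1 stays between 9.62 and 9.96, and the B cell list varies between 7.68 and 8.85 while the ILC3 list stays between 11.27 and 11.34.

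Of the genes that work with potassium channels, a larger share was called than of the channels, a difference that was not tested. The partner lists were chosen with earlier results of these data known. Of 59 partner genes measured in 6 lists, 42 (71.2%) were above background, against 46.2% of all named genes. Of the same 59, 23 lay above all other-organ genes on every array, against 24.1% of all named genes. Regulators of KCa3.1 were called in 9 of 9 cases although Kcnn4 was just past the threshold. Calm2 and Calm3, which encode the calmodulin that senses calcium for this channel, were at 11.87 ± 0.10 and 9.62 ± 0.16. Nme2, a histidine kinase that activates KCa3.1, was at 8.15 ± 0.24, and the opposing histidine phosphatase gene Phpt1 was at 10.27 ± 0.40. Trim27 was at 7.97 ± 0.19 and Cul3 at 10.97 ± 0.16, both of the ubiquitin pathway that restrains the lipid kinase upstream of the channel.

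Genes of calcium entry and extrusion were called in 13 of 14 cases, against 46.2% of all named genes. Of the 17 genes fixed for this list, 3 are not analysed here. The pore genes Orai3, Orai2 and Orai1 were at 8.24 ± 0.14, 8.04 ± 0.10 and 7.46 ± 0.23, and the calcium sensor genes of the endoplasmic reticulum, Stim2 and Stim1, at 8.32 ± 0.26 and 8.11 ± 0.13. Atp2b1, a calcium pump of the plasma membrane, was at 10.48 ± 0.03, Itpr2, a calcium release channel, at 9.62 ± 0.13, Atp2a2, a pump of the endoplasmic reticulum, at 9.14 ± 0.14, and Trpm7 at 8.57 ± 0.23. The exception was Trpm4, the calcium-activated cation channel that depolarises T cells, at 5.22, 5.22, 5.14 and 5.18, which was not called.

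Potassium uptake and cotransport genes were called in 4 of 9 cases, close to the share of all named genes, and in 2 without array 3. Atp1b3, a beta subunit of the sodium pump, was at 9.74 ± 0.07 and Slc12a7, a potassium-chloride cotransporter, at 7.35 ± 0.10. Atp1b1 was at 5.91, 6.13, 7.64 and 5.87, so its call rested on array 3, and it was lost without that array, at an adjusted detection p of 0.0757. Slc12a2, the sodium-potassium-chloride cotransporter, was at 6.46 ± 0.30 and also lost its call without array 3, at 0.0515, or array 4, at 0.0527. Slc12a4 at 6.14 ± 0.06 and Atp1b2 at 6.08 ± 0.10 were not called. The sodium pump's alpha subunit genes are not analysed here.

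Subunits of the volume-regulated anion channel, which works beside potassium channels when a swollen cell shrinks back, were called in 4 of 5 cases. Lrrc8c was at 9.19 ± 0.25, Lrrc8b at 8.06 ± 0.32, the obligatory subunit Lrrc8a at 7.14 ± 0.19 and Lrrc8d at 7.02 ± 0.14, and Lrrc8e was not called at 6.18 ± 0.02. Channel partners and scaffolds outside the Kcn symbols were called in 7 of 16 cases, close to the 46.2% of all named genes. They included the membrane scaffold Dlg1, known to bind Kv1.3, at 8.29 ± 0.21, its relative Dlg4 at 7.11 ± 0.23, the cortactin relative Hcls1 of blood cells at 9.06 ± 0.34, and Kcnrg, which encodes a suppressor of Kv channel assembly in human cells, at 7.34 ± 0.46. Kcmf1, a ubiquitin ligase gene named for a potassium channel, was at 9.88 ± 0.13, and Caml, of calcium signalling at the endoplasmic reticulum, was at 7.23 ± 0.12. Lrrc26, a gamma subunit of BK channels, was called at 6.39 ± 0.04, just past the threshold, and its relatives Lrrc55 at 6.36 ± 0.04 and Lrrc52 at 6.02 ± 0.12 were not.

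Genes of potassium efflux and the inflammasome were called in 5 of 6 cases, against 46.2% of all named genes. Casp1, the inflammasome protease, was at 9.53 ± 0.10, Nek7, which links potassium efflux to NLRP3, at 8.70 ± 0.24, and Pycard, the adaptor, at 7.62 ± 0.43. The ATP-gated channel genes P2rx4 and P2rx7 were at 7.34 ± 0.20 and 6.49 ± 0.13, and the call of P2rx7 was lost without array 3, at an adjusted detection p of 0.0515. Nlrp3, the sensor itself, was at 4.56 ± 0.01 and not called.

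Some other ion channel families, picked out after the data were seen, had a low share of called genes too. Of their 87 genes, 14 (16.1%) were above background, against 17 of 91 potassium channel genes (18.7%) and 46.2% of all named genes. Their median level was 5.44. The choice left out the Orai, Itpr and Lrrc8 genes, most of which were called and are counted with the partners. Trpm4, Trpm7, Trpv2, P2rx4 and P2rx7 are counted both here and with the partners. Voltage-gated sodium channel genes were called in 0 of 11 cases by the detection test, in 2 by limma's test, and 2 had an unadjusted detection p under 0.05. Voltage-gated calcium channel genes were called in 3 of 24 cases, TRP channels in 2 of 20, HCN and CNG channels in 1 of 9, anoctamins in 3 of 9, P2X receptors in 2 of 7 and CLC chloride channels in 3 of 7. Above all other-organ genes on every array were Clcn3, an endosomal chloride-proton exchanger, at 8.68 ± 0.12, and Trpm7. No test of a difference between these families was made.

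**Figure D5:**
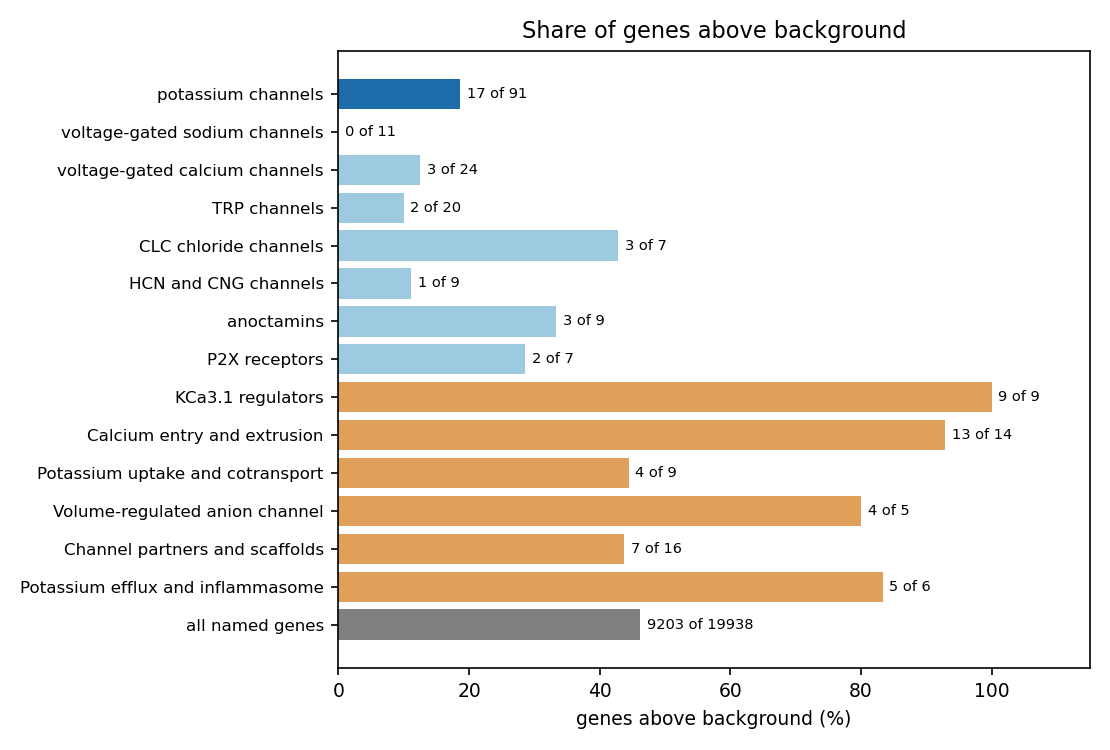
Share of genes above background in percent (x axis) for potassium channel genes (dark blue), other ion channel families (light blue), partner lists (orange) and all named genes (grey), with counts beside the bars. Trpm4, Trpm7, Trpv2, P2rx4 and P2rx7 count in both a light blue and an orange bar. Potassium channel genes, at 17 of 91, lie below all named genes, at 9203 of 19938, while KCa3.1 regulators reach 9 of 9.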

How the data were processed

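As deposited, each value was a log2 level of a probe set from RMA (background correction, scaling between arrays and a summary over probes), per the submitters' processing notes. The sources used here give neither its version nor a genome build. The table held 35556 probe sets on 4 arrays, and the number of arrays limits the precision. GEO's platform annotation gave 21789 probe sets a single symbol, 1621 several, which were left unnamed, and did not list 12146; 21698 matched RefSeq (GRCm38.p6), used to update symbols and to find overlapping genes. Each gene took its probe set with the highest mean. Of 97 RefSeq genes with a matching symbol, 6 are not analysed here, and 3 members had several probe sets.

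The detection p of a gene was its rank from the top among the background genes' means (counting itself, ties against it) over their number plus 1, so it could not fall below 0.000808. As an alternative, limma 3.58.1 tested each array's level minus that array's 95th percentile of background. Both were tested on simulated data with 200 of 19938 genes placed at known heights, 50 at each: the detection test called 8% of genes raised by 1 log2 unit over background, 52% at 2 and 100% at 4, and limma 10%, 76% and 100%. Of 91 members, 24 had the same value on at least 2 arrays, which median polish in RMA can give, so their SD can be too small. Named were all called members, in each class the 3 highest and the lowest not called, preset lists of immune and other-organ channels, up to 6 called and 2 uncalled genes per partner list, and the sort gate genes. Any others were chosen after their values were seen. The members and lists were chosen with earlier results of these data known. A planned search of protein sequences for the pore signature was not run because no protein table was used here.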

Additional observations from a re-analysis of the deposited data

Results flagged for a closer look

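For 10 of 96 named genes the highest or lowest array stood apart from the other 3 by more than Dixon's criterion for 4 values allows, and chance flags about 1 in 20. Among members, Kcna5 was high on array 4 at 4.65 (others 4.40 to 4.43), Kcnv2 on array 1 at 5.94 (others 5.67 to 5.71) and Kcna6 on array 1 at 5.39 (others 5.17), while Kcnc1 was low on array 2 at 5.19 (others 5.22), Kcnj3 on array 3 at 4.73 (others 4.81) and Kcnk13 on array 2 at 5.83, by 0.0024 in all. None of these 6 was above background, and in 4 of them the other 3 arrays had identical values. Among partners, Atp1b1 was high on array 3 at 7.64 (others 5.87 to 6.13), Dlg1 on array 3 at 8.60 (others 8.18 to 8.20) and P2rx4 on array 4 at 7.63 (others 7.20 to 7.27), and Stim2 was low on array 3 at 7.93 (others 8.44 to 8.45).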

How the results depend on the processing

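The count of called potassium channel genes, 17, lay between 15 and 19 when each array was left out in turn, and that of partner genes, 42, between 38 and 43. It was 15 with olfactory receptors alone as background, 19 with a filter on dim genes and 25 with limma, and 17 with other choices of probe set or normalization between arrays. The median SD of called members lay between 0.088 and 0.118 without 1 array. With a level over the background's 95th percentile on all arrays as the rule, 26 members were called, against 54.4% of all named genes. Above all other-organ genes on every array were 3 members and 23 partner genes, against 24.1% of all named genes. At an adjusted p under 0.01, 0 members and 0 partner genes were called, as were 0 of all named genes, because the smallest adjusted p was 0.0108. Between the detection test's alternatives of arrays, background and filter, the members that changed their call were Kcnj11, Kcnn4, Kcnn1 and Kcnk16. No paired analysis was possible because there is only 1 group. The authors' background correction was kept throughout. Among classes, inward rectifiers had 1 call without array 3, without array 4 or with olfactory receptors alone, and calcium- or sodium-activated channels between 0 and 2 calls without 1 array.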
